A study of Mus musculus with 8 samples.

Results

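WNT ligands, the R-spondins that enhance their signal, Frizzled receptors, co-receptors and secreted antagonists were examined in 8 mouse ovarian tumours. The genes were chosen by the names printed on the array: Wnt, Fzd, Sfrp, Dkk and Rspo genes with a family number, and Lrp5, Lrp6, Ror1, Ror2, Ryk, Wif1 and Frzb. This gave 48 genes among the 31709 named genes on the array, measured by 56 probes, of which 40 genes had 1 probe and 8 had 2. After the filter on dim probes, 41 of the 48 entered the fit, among 25536 genes in all. Wnt2, Wnt3, Wnt3a, Wnt8a, Rspo2, Dkk1 and Dkk4 were left out by that filter, which kept a probe only where 3 or more of the 4 tumours of either genotype gave a signal well above background.

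The tumours arose spontaneously in female C57BL/6J mice that carried the TgMISIIR-TAg transgene, in which the promoter of Amhr2 (MISIIR, the receptor of Müllerian inhibiting substance) drives the SV40 large T antigen. One genotype was Nedd9-WT and the other Nedd9-null, with 4 mice in each. Both carried the transgene, neither received a drug, and age was not given in the sources used here. Nedd9 encodes a scaffold protein of focal adhesions, and the comparison asks how tumours of otherwise like mice differ in RNA when it is lost.

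WNT ligands are lipid-modified secreted proteins that bind Frizzled receptors. With the co-receptors LRP5 or LRP6 they stabilise beta-catenin, which acts with TCF and LEF factors on target genes; with ROR1, ROR2 or RYK they act on cell polarity and movement without beta-catenin. Secreted Frizzled-related proteins and WIF1 bind the ligands outside the cell, Dickkopf proteins block LRP5 and LRP6, and R-spondins prolong receptor life at the surface. In the mouse reproductive tract, Wnt4 and Rspo1 act in ovary development, and Wnt4, Wnt5a and Wnt7a act in the development of the oviduct and uterus from the Müllerian duct.

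All values below are log2 processed signal minus the 75th percentile of the same array, so 0 is a bright probe, and a difference of 1 is a 2-fold change. Probes differ in how brightly they hybridise, and levels are therefore compared between tumours for one gene, not between genes. Nedd9 itself lay at 1.15, 0.84, 1.30 and 1.85 in Nedd9-WT replicates 1 to 4 and at -2.01, -3.50, -3.39 and -4.03 in Nedd9-null replicates 1 to 4. It fell by 4.51 (SE 0.44, adjusted p = 0.0281 by limma with Benjamini-Hochberg adjustment; 2-sided exact permutation p = 0.0286, the smallest that 4 against 4 allow). Every Nedd9-null tumour was below every Nedd9-WT tumour. The adjusted p rose above the threshold of 0.05 when any of Nedd9-WT replicates 2, 3 and 4 or Nedd9-null replicates 2, 3 and 4 was left out, with a highest value of 0.123 among them. All tumours of one genotype lay on one slide, so slide and genotype cannot be told apart, and the p-values measure the spread between tumours only. One further library stood apart from its genotype: the array of Nedd9-null replicate 1 correlated with those of Nedd9-WT at r = 0.938 to 0.973, and its r with Nedd9-null replicates 2 to 4 was 0.886 to 0.920. Results are therefore given with and without it. This tumour was picked from these same data, and its Nedd9 level went with its label. Leaving out the Nedd9-null tumour most like Nedd9-WT tends to widen the differences by itself. The p-values without it are descriptive and are no independent support.

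Markers of some of the cell types such tissue can hold moved with that same division. The mean level of the 12 granulosa and steroidogenic cell markers was -0.03 to 0.97 in Nedd9-WT, -0.16 in Nedd9-null replicate 1 and -4.57 to -2.26 in Nedd9-null replicates 2 to 4. Amhr2, whose promoter drives the transgene, was at 6.11 to 7.04 in Nedd9-WT, 6.46 in Nedd9-null replicate 1 and 0.29 to 2.18 in the others, and was well above background on every array. Foxl2, a granulosa cell transcription factor, was at 3.38 to 3.79 in Nedd9-WT and 3.61 to 4.10 in Nedd9-null. The 9 measured markers of oviduct ciliated cells ran the other way, with a mean of -3.39 to -1.33 in Nedd9-WT, -0.88 in Nedd9-null replicate 1 and 2.09 to 2.55 in Nedd9-null replicates 2 to 4. The 12 markers of oviduct secretory and Müllerian epithelium had means of -2.26 to -1.35, -2.03 and -0.01 to 0.76 in the same order; among them Ovgp1, the oviduct glycoprotein, was at -4.11 to -0.21, -2.82 and 6.38 to 7.01. In bulk tissue, fewer cells of a type and less RNA per cell cannot be told apart. The part of these markers in the WNT results was not tested.

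Other marker lists were measured as well. Median differences were 0.22 over 8 mesothelial and ovarian surface genes, -0.06 over 11 fibroblast and smooth muscle genes, -0.63 over 8 endothelial genes and 0.17 over 9 leukocyte genes. Over 4 red blood cell genes the median difference was -2.20. Nedd9-null replicate 1 had an endothelial mean of -1.99, beside -1.95 to -1.93 in Nedd9-null replicates 2 to 4 and -1.85 to -0.74 in Nedd9-WT. Its mesothelial and red blood cell means, -0.80 and -0.73, were the lowest of the 8 tumours. Its fibroblast and leukocyte means lay within the Nedd9-WT range. No gene of the 8 marker lists passed the threshold with all 8 tumours (limma).

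None of the 41 WNT genes passed an adjusted p of 0.05 by limma with all 8 tumours, against a background of 0.0666% of all genes tested (0.0587% higher and 0.00783% lower in Nedd9-null); the smallest adjusted p was 0.0690, for Fzd8. At an unadjusted p under 0.05 there were 18 of the 41, against 23.9% of all genes. Of these, 10 were higher in Nedd9-null, against 13.1% of all genes, and 8 were lower, against 10.8%. The genotypes did not overlap in 7 genes, against 12.7% of all genes: Wnt5b, Wnt16, Fzd8, Sfrp5 and Dkk3 were higher in every Nedd9-null tumour (7.16% of all genes) and Sfrp4 and Frzb were lower (5.58%). For Wnt16 this held for its brighter probe only. The median difference over the 41 was 0.20, beside 0.03 over all genes, and the median size regardless of direction was 1.17, beside 0.37.

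Without Nedd9-null replicate 1, 15 of the 41 passed the adjusted threshold, against 18.7% of all genes. These counts are descriptive, since the tumour left out was picked from the same data. Higher in Nedd9-null were 7 genes (10.3% of all genes): Wnt2b, Wnt16, Fzd2, Fzd8, Fzd10, Sfrp2 and Sfrp5. Because Wnt2b and Fzd10 entered the fit only through Nedd9-null, the filter favoured this direction for them. Lower were 8 genes (8.36%): Wnt5a, Wnt6, Wnt10a, Wnt10b, Fzd5, Fzd9, Sfrp4 and Frzb. An unadjusted p under 0.05 was reached by 19 of the 41, against 32.6% of all genes; 10 were higher (16.0% of all genes) and 9 lower (16.6%). The genotypes did not overlap in 20 of the 41 without that tumour, against 34.4% of all genes; 10 were higher (16.4%) and 10 lower (18.1%). In 12 of these 20, Nedd9-null replicate 1 lay within the range of the Nedd9-WT tumours, and in the other 8 it lay outside it.

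**Figure D1:**
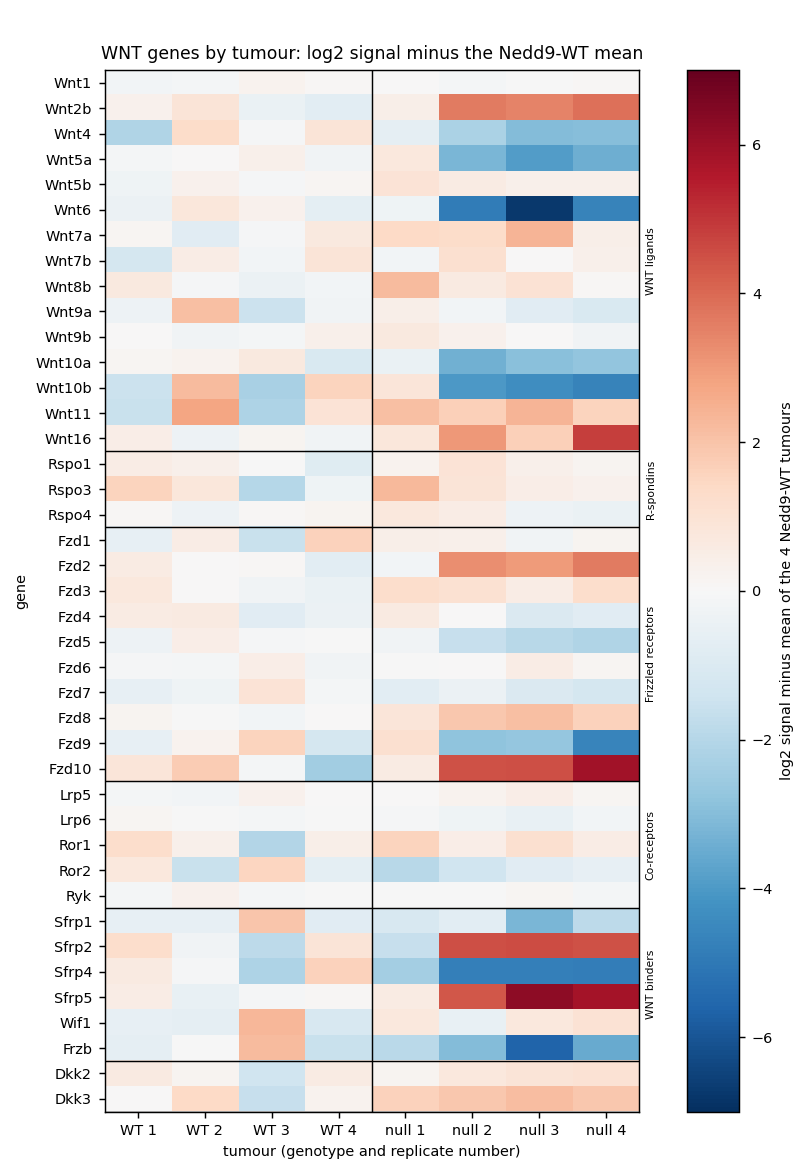
Colour shows each tumour's log2 signal minus the mean of the 4 Nedd9-WT tumours, for the 41 measured WNT genes (rows, grouped by role) and the 8 tumours (columns). The strong colours sit in Nedd9-null replicates 2 to 4, while Nedd9-null replicate 1 lay within the Nedd9-WT range in 23 of the 41 genes.

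**Figure D2:**
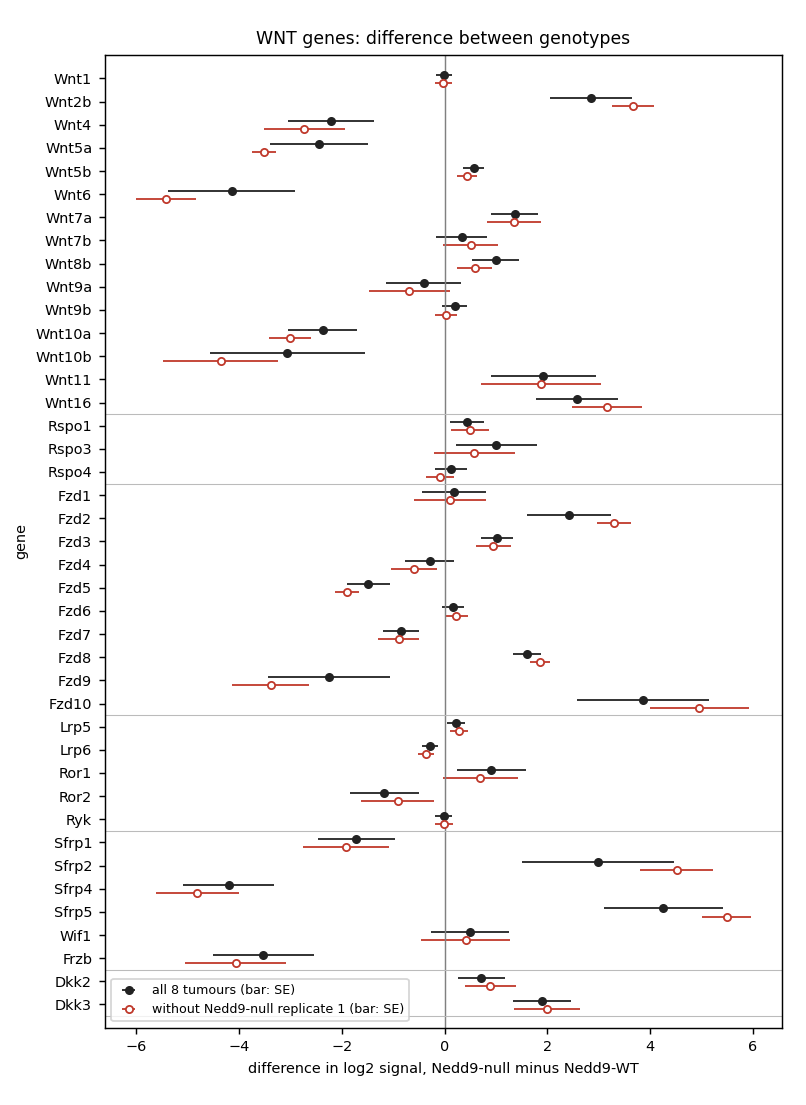
Points give the difference in log2 signal, Nedd9-null minus Nedd9-WT, for each of the 41 genes, with bars of 1 SE; filled points use all 8 tumours and open points leave out Nedd9-null replicate 1. The differences ran from -4.20 for Sfrp4 to 4.25 for Sfrp5 with all tumours, and from -5.42 for Wnt6 to 5.48 for Sfrp5 without that tumour.

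Among the 15 measured ligands, the gene with the largest difference was Wnt6, a ligand of epithelia. Wnt6 was at 1.13, 2.36, 1.82 and 0.84 in Nedd9-WT replicates 1 to 4 and at 1.23, -3.35, -5.19 and -3.11 in Nedd9-null replicates 1 to 4. Nedd9-null replicates 2 to 4 were far below every Nedd9-WT tumour, and replicate 1 lay among the Nedd9-WT values, so the genotypes overlapped. The difference was -4.14 (SE 1.23, adjusted p = 0.115), and -5.42 without Nedd9-null replicate 1 (adjusted p = 0.00138). Its neighbour on the chromosome, Wnt10a, had the same arrangement. Wnt10a was at -3.49, -3.37, -2.94 and -4.69 in Nedd9-WT and at -4.07, -6.96, -6.55 and -6.39 in Nedd9-null, with only replicate 1 inside the Nedd9-WT range. It differed by -2.37 (SE 0.67, adjusted p = 0.108; -1.41 with normexp, a background correction that raises dim values), and by -3.01 without that replicate (adjusted p = 0.00327).

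Wnt5a, the best known ligand of the branch without beta-catenin and a gene of reproductive tract stroma, also divided the Nedd9-null tumours. Its values were 2.14, 2.33, 2.64 and 2.01 in Nedd9-WT and 3.02, -0.92, -1.63 and -1.16 in Nedd9-null. Nedd9-null replicate 1 was the highest of the 8 tumours and the other Nedd9-null tumours the lowest. The difference of -2.45 (SE 0.95, adjusted p = 0.176) became -3.51 without replicate 1 (adjusted p = 0.000327). Wnt5b, its close paralogue, did not follow it. Wnt5b was at 0.73, 1.34, 0.94 and 1.18 in Nedd9-WT and at 1.99, 1.62, 1.43 and 1.41 in Nedd9-null, a difference of 0.56 (SE 0.21, adjusted p = 0.158). All 4 Nedd9-null tumours lay above all Nedd9-WT tumours, with Nedd9-null replicate 1 highest. Fold change was 1.48 for Wnt5b, and leaving out Nedd9-null replicate 1 gave a difference of 0.44 (adjusted p = 0.162).

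Wnt4, the ligand of female gonad and Müllerian duct development, was at -2.14, 1.27, -0.11 and 0.86 in Nedd9-WT and at -0.67, -2.25, -3.04 and -2.99 in Nedd9-null. The genotypes overlapped through Nedd9-WT replicate 1 and Nedd9-null replicate 1. The difference was -2.20 (SE 0.83, adjusted p = 0.167), and -2.73 without Nedd9-null replicate 1 (adjusted p = 0.055). Wnt10b varied widely within Nedd9-WT, at -2.91, 0.82, -3.65 and 0.18. It did not meet the rule for WNT genes given in full, and was chosen for this after its values were seen. In Nedd9-null it was at -0.56, -5.44, -5.75 and -6.06, so that replicates 2 to 4 lay below all Nedd9-WT tumours. Its difference was -3.06 (SE 1.50, adjusted p = 0.258), and -4.36 without Nedd9-null replicate 1 (adjusted p = 0.0369).

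Higher values in Nedd9-null were measured for 3 further ligands with an unadjusted p under 0.05. Wnt16 was at -4.24, -5.05, -4.50 and -4.94 in Nedd9-WT and at -3.90, -1.67, -3.03 and 0.14 in Nedd9-null. On this probe, the brighter of its pair, the genotypes did not overlap, with Nedd9-null replicate 1 nearest to Nedd9-WT and replicate 4 highest. The difference was 2.57 (SE 0.80, adjusted p = 0.122), and 3.16 without replicate 1 (adjusted p = 0.0205). Wnt2b was dim in Nedd9-WT, at -6.93, -6.29, -7.69 and -7.96 and well above background on 2 of 4 arrays, and stood at -6.82, -3.56, -3.72 and -3.38 in Nedd9-null. Only Nedd9-null replicates 2 to 4 were above the Nedd9-WT range. The difference was 2.85 (SE 0.80, adjusted p = 0.107), and 3.67 without replicate 1 (adjusted p = 0.00145); with normexp the 8 tumours gave 1.47.

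Wnt7a, a ligand of the oviduct and uterine epithelium, was dim in every tumour, at -6.85, -7.79, -7.09 and -6.31 in Nedd9-WT and at -5.61, -5.75, -4.62 and -6.62 in Nedd9-null. The genotypes overlapped through Nedd9-null replicate 4. Its difference was 1.36 (SE 0.46, adjusted p = 0.139) and shrank to 0.48 with normexp. The remaining 6 ligands had differences from -0.41 for Wnt9a to 1.92 for Wnt11, and none had an unadjusted p under 0.05. Wnt11 was at -3.34, 0.99, -3.95 and -0.80 in Nedd9-WT and within -0.23 to 0.60 in Nedd9-null, so the Nedd9-WT tumours enclosed all Nedd9-null values. The sign of the difference for Wnt1, Wnt7b, Wnt9a and Wnt9b changed under at least one alternative or with a tumour left out.

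**Figure D3:**
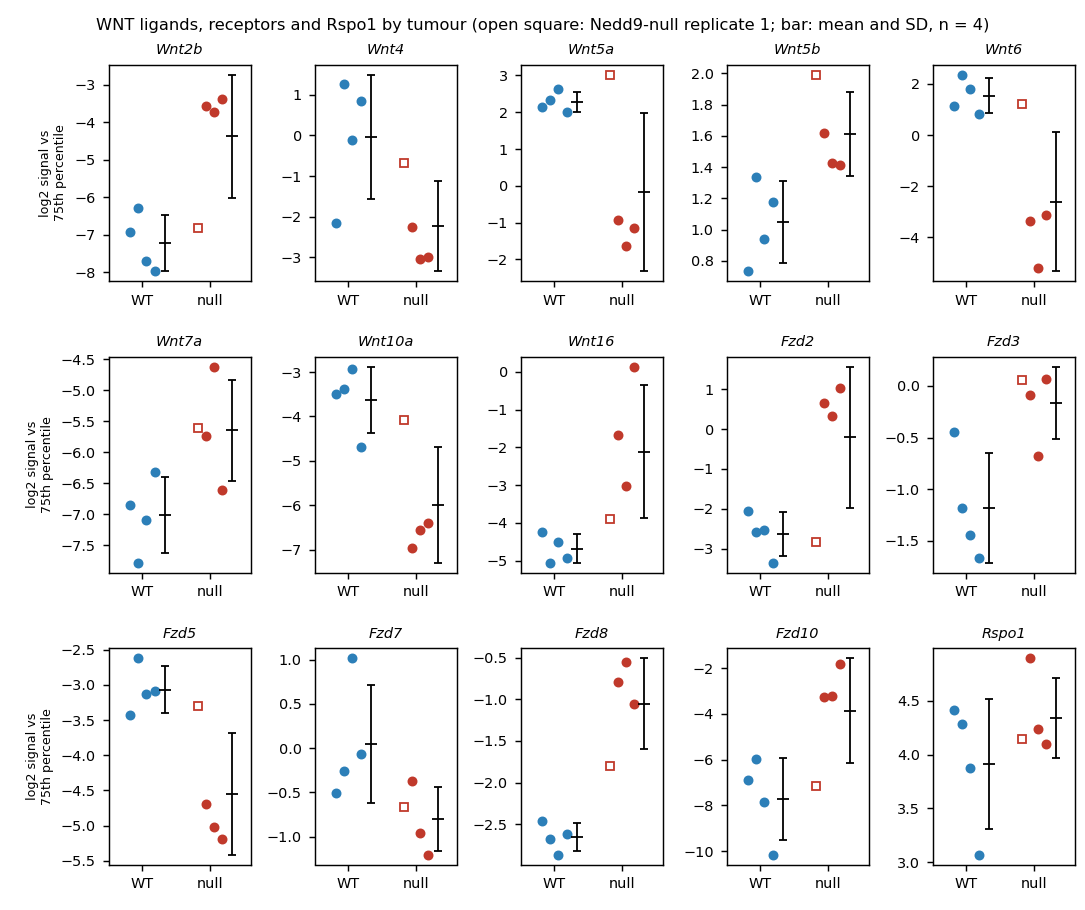
Each panel plots one gene's log2 signal relative to the array's 75th percentile, with Nedd9-WT tumours in blue, Nedd9-null tumours in red and Nedd9-null replicate 1 as an open square; bars are the mean and SD of 4. In Wnt6, Wnt10a, Fzd2, Fzd5 and Fzd10 the open square lies among the blue points, and in Wnt5b, Wnt16 and Fzd8 all red symbols lie above the blue ones.

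The R-spondins, which bind LGR receptors and protect Frizzled receptors from degradation, showed no gene at an unadjusted p under 0.05 among 3 measured. Rspo1, the ovary-determining member, was at 4.42, 4.29, 3.87 and 3.07 in Nedd9-WT and at 4.14, 4.89, 4.24 and 4.09 in Nedd9-null. The genotypes overlapped, and the difference of 0.43 (SE 0.34, adjusted p = 0.475) was close to its error. Rspo3 differed by 1.01 (adjusted p = 0.478) and was well above background on 2 of the 4 Nedd9-WT arrays; with normexp its difference was 0.14. Rspo4 differed by 0.13, and its sign turned under 7 of the alternatives, both with other processing of all 8 tumours and with a tumour left out.

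All 10 Frizzled receptors, the membrane proteins that bind WNT ligands, were measured. At an unadjusted p under 0.05, Fzd2, Fzd3, Fzd8 and Fzd10 were higher in Nedd9-null and Fzd5 and Fzd7 were lower. Fzd8 was at -2.46, -2.68, -2.87 and -2.62 in Nedd9-WT and at -1.80, -0.79, -0.55 and -1.06 in Nedd9-null. It was the receptor whose genotypes did not overlap, with Nedd9-null replicate 1 nearest to the Nedd9-WT values. The difference was 1.60, a fold of 3.04 (SE 0.28, adjusted p = 0.0690), and 1.85 without replicate 1 (adjusted p = 0.00099).

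Fzd2 was at -2.04, -2.59, -2.52 and -3.35 in Nedd9-WT and at -2.83, 0.65, 0.33 and 1.02 in Nedd9-null. Replicates 2 to 4 of Nedd9-null were above all Nedd9-WT tumours and replicate 1 was among them. The difference was 2.42 (SE 0.82, adjusted p = 0.139), and 3.29 without replicate 1 (adjusted p = 0.00101). Fzd10 had a larger difference, with a larger SE. It was at -6.89, -5.96, -7.87 and -10.16 in Nedd9-WT, where 2 of 4 arrays were well above background, and at -7.16, -3.25, -3.22 and -1.83 in Nedd9-null. The difference was 3.86 (SE 1.28, adjusted p = 0.135), and 4.96 without Nedd9-null replicate 1 (adjusted p = 0.0135); normexp gave 1.98 with all tumours.

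Fzd3, a receptor of the planar polarity branch, was at -0.45, -1.18, -1.45 and -1.66 in Nedd9-WT and at 0.05, -0.09, -0.68 and 0.06 in Nedd9-null. Here Nedd9-null replicate 1 stood with its own genotype, and the overlap came from Nedd9-WT replicate 1 and Nedd9-null replicate 3. The difference was 1.02 (SE 0.30, adjusted p = 0.115). Fzd9, named after its values were seen, was at -3.66, -2.82, -1.51 and -4.28 in Nedd9-WT and at -1.92, -5.91, -5.75 and -7.69 in Nedd9-null. Its difference of -2.25 (adjusted p = 0.290) became -3.38 without replicate 1 (adjusted p = 0.0222). Fzd9 was dim in Nedd9-null replicates 2 to 4, and other processing of all 8 tumours gave as little as -1.34. Fzd1, Fzd4 and Fzd6 differed by 0.18, -0.29 and 0.17, and the signs of Fzd1 and Fzd6 changed under at least one alternative or with a tumour left out.

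For Fzd5, Fzd7 and Wnt1, among 7 genes with 2 kept probes, the probes differed in sign; those of Wnt1 differed by -0.02 and 0.14 between genotypes. The brighter Fzd5 probe was at -3.43, -2.62, -3.13 and -3.09 in Nedd9-WT and at -3.30, -4.69, -5.03 and -5.19 in Nedd9-null, a difference of -1.49 (SE 0.42, adjusted p = 0.109; -1.90 and 0.00213 without Nedd9-null replicate 1). The other Fzd5 probe differed by 0.01. The brighter Fzd7 probe was at -0.51, -0.26, 1.02 and -0.07 in Nedd9-WT and at -0.67, -0.37, -0.96 and -1.21 in Nedd9-null, a difference of -0.85 (SE 0.35, adjusted p = 0.198), and the other differed by 0.14. Probes of Fzd2 (2.42 and 1.97), Lrp6 (-0.29 and -0.38), Ror1 (0.91 and 0.64) and Wnt16 (2.57 and 4.88) had the same sign. On the dimmer Wnt16 probe the genotypes overlapped, with Nedd9-null replicate 1 at -6.21 and Nedd9-WT replicate 1 at -5.06. The files do not give the transcript isoform each probe reads, and exon positions were not used here.

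The Fzd2 and Fzd7 genes are closely related, and a probe of each lies in the same stretch of the gene. Their 60-base sequences, in mm9 coordinates on the plus strand, are shown so that their likeness can be seen. Capitals mark the 42 bases that are identical in the 50 that align without gaps, and the longest identical run is 14 bases. The Fzd2 probe at chr11:102467613-102467672 is the one used for Fzd2, and the Fzd7 probe at chr1:59541367-59541426 is the dimmer of its pair.
Fzd2 probe: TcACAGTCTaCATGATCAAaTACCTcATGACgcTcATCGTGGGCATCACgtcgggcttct
Fzd7 probe: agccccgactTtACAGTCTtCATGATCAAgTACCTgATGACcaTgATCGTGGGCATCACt
How much of either signal came from the other gene was not tested. The other Fzd2 probe gave a difference of 1.97 and the brighter Fzd7 probe one of -0.85.

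**Figure D4:**
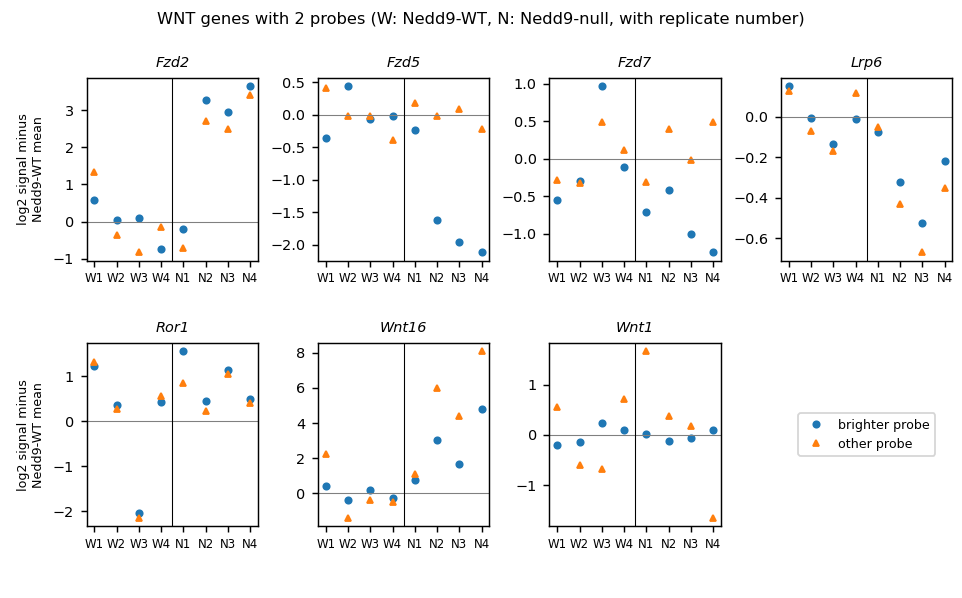
For 7 genes with 2 measured probes, each tumour's log2 signal minus the Nedd9-WT mean of that probe is plotted, with circles for the brighter probe and triangles for the other. The probes follow each other in Fzd2, Lrp6 and Ror1, while in Fzd5 only the brighter probe is lower in Nedd9-null replicates 2 to 4.

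The co-receptors, LRP5 and LRP6 for the beta-catenin branch and ROR1, ROR2 and RYK for the other, had a median difference of -0.02. None of the 5 had an unadjusted p under 0.05, and none passed the adjusted threshold without Nedd9-null replicate 1. Lrp6 was at 2.54, 2.38, 2.25 and 2.37 in Nedd9-WT and at 2.31, 2.06, 1.86 and 2.17 in Nedd9-null. The Nedd9-null tumours lay slightly lower, with replicate 1 inside the Nedd9-WT range, and the difference was -0.29 (adjusted p = 0.310). Lrp5 differed by 0.22, Ror1 by 0.91 and Ror2 by -1.17 (adjusted p = 0.323). Ryk differed by -0.02, with a sign that turned under some alternatives.

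Among the secreted antagonists, the related proteins of the SFRP family went in opposite directions. Sfrp5 was at -4.61, -5.66, -5.25 and -5.07 in Nedd9-WT and at -4.60, -0.78, 1.12 and 0.66 in Nedd9-null. All Nedd9-null values were above all Nedd9-WT values, but replicate 1 was next to Nedd9-WT replicate 1. The difference was 4.25 (SE 1.16, adjusted p = 0.105), and 5.48 without replicate 1 (adjusted p = 0.000616). Sfrp2 was at 0.01, -1.45, -3.04 and -0.28 in Nedd9-WT and at -2.79, 3.34, 3.37 and 3.26 in Nedd9-null. Replicates 2 to 4 were nearly equal and above every Nedd9-WT tumour, and replicate 1 was near the lowest Nedd9-WT value. Its difference was 2.98 (SE 1.47, adjusted p = 0.261), and 4.51 without replicate 1 (adjusted p = 0.00555).

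Sfrp4, a family member of the ovary and uterine stroma, was at 2.34, 1.64, -0.43 and 3.33 in Nedd9-WT and at -0.65, -3.06, -3.08 and -3.13 in Nedd9-null. The genotypes did not overlap, and Nedd9-null replicate 1 lay just below Nedd9-WT replicate 3. The difference was -4.20 (SE 0.89, adjusted p = 0.0831), which is 18.4-fold lower, and -4.81 without replicate 1 (adjusted p = 0.00724). Frzb, which encodes a further Frizzled-related protein, was at -2.62, -2.01, 0.25 and -3.56 in Nedd9-WT and at -3.90, -5.03, -7.58 and -5.53 in Nedd9-null. Every Nedd9-null tumour was below every Nedd9-WT tumour, with replicate 1 nearest. Frzb differed by -3.53 (SE 0.98, adjusted p = 0.107), and by -4.06 without replicate 1 (adjusted p = 0.030).

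Sfrp1 was at -1.72, -1.68, 0.83 and -1.94 in Nedd9-WT and at -2.24, -1.89, -4.33 and -2.93 in Nedd9-null. Its genotypes overlapped through Nedd9-null replicate 2, and the difference was -1.72 (SE 0.75, adjusted p = 0.213). Wif1, a ligand-binding inhibitor outside the SFRP family, differed by 0.49. Of the Dickkopf genes, Dkk3, a secreted family member that is not a typical LRP6 blocker, was at 3.02, 4.35, 1.35 and 3.20 in Nedd9-WT and at 4.61, 4.86, 5.17 and 4.89 in Nedd9-null. The genotypes did not overlap, and here Nedd9-null replicate 1 was close to its own genotype. The difference was 1.90 (SE 0.56, adjusted p = 0.115), and 1.99 without replicate 1 (adjusted p = 0.073). Dkk2 differed by 0.71, or 0.23 with normexp, and replicate 1 lay inside the Nedd9-WT range.

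The tumours that were high in Sfrp2 and Sfrp5 and low in Sfrp4 and Frzb were Nedd9-null replicates 2 to 4. These are also the tumours low in granulosa cell markers, with means of -4.57 to -2.26, and high in ciliated cell markers, with means of 2.09 to 2.55. The same holds for the ligands and receptors named above whose values set those 3 tumours apart. The part of those cells in the differences was not tested.

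**Figure D5:**
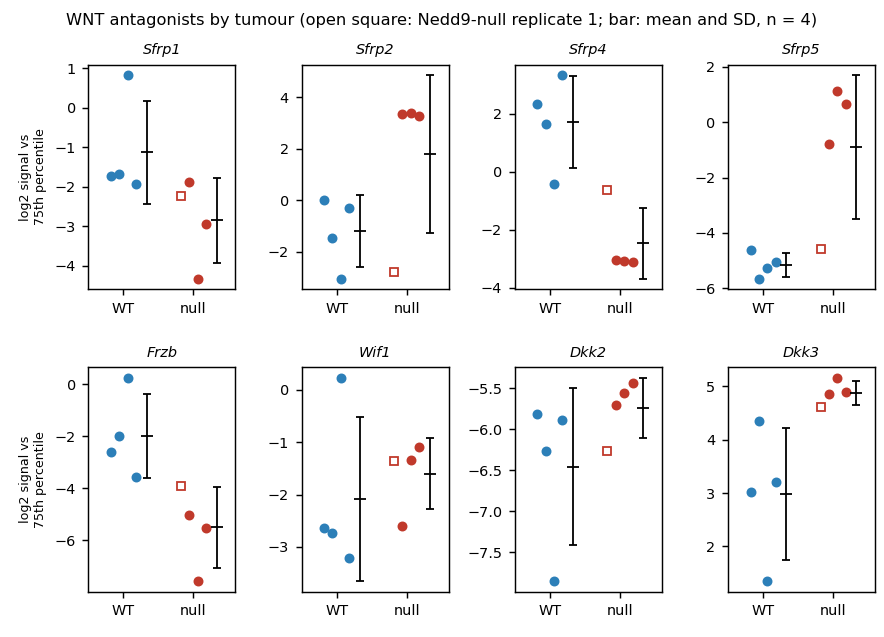
Each panel plots the log2 signal of one antagonist relative to the array's 75th percentile in Nedd9-WT (blue) and Nedd9-null (red) tumours, with Nedd9-null replicate 1 as an open square and bars for the mean and SD of 4. Sfrp2 and Sfrp5 are high in Nedd9-null replicates 2 to 4, Sfrp4 and Frzb are low there, and Dkk3 is high in all 4 Nedd9-null tumours.

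Because Sfrp5, Sfrp2 and Frzb encode related proteins and differed in opposite directions, the 250 bases before the transcription start of each are printed, in the direction of the gene, from the RefSeq promoter table of build GRCm38.p6. Capitals mark CpG dinucleotides, the bases at which mammalian DNA is methylated; methylation was not measured here. Sfrp5 had 13, Sfrp2 had 16 and Frzb had 16. No promoter was matched to Sfrp1 or Sfrp4, whose means were also lower in Nedd9-null, so Frzb alone stands for the lower genes. The windows are chr19:42202253-42202502 on the minus strand, chr3:83766071-83766320 on the plus strand and chr2:80447397-80447646 on the minus strand.
Sfrp5: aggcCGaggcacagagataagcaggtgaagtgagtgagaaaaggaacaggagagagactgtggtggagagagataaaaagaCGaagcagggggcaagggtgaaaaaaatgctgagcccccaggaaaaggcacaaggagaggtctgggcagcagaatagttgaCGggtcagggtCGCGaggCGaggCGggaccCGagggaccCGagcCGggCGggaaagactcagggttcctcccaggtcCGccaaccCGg
Sfrp2: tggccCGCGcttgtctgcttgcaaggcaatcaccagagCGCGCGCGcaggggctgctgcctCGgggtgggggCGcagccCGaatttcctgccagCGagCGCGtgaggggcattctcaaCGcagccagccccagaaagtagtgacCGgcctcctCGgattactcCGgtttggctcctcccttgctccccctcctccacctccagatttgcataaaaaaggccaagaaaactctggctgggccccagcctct
Frzb: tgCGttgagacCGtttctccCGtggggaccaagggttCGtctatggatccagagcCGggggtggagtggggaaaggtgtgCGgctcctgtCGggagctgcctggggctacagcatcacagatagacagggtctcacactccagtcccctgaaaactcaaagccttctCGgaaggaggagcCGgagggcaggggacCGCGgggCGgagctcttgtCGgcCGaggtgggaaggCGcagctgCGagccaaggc
All of these counts lie above the median of 6 over all 32851 promoters of the table and below the median of 22 over the 35 promoters matched to 32 of the WNT genes. Median GC content was 66.8% for the WNT promoters and 52.4% for all.

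The letters CTTTGAA and CTTTGAT, which TCF and LEF factors recognise, were searched on both strands of the same windows. They were found in 3 of the 35 WNT promoters (8.57%) and in 7.48% of all promoters. The 3 were promoters of Dkk1, 117 bases before the start, Wnt11, 51 bases before, and Wnt5b, 71 bases before. A match describes the letters and does not show binding. The Wnt5b window, one of 3 listed for that gene, is chr6:119449387-119449636 on the minus strand; it is printed because Wnt5b was measured, did not overlap between genotypes and holds the motif, in capitals.
Wnt5b: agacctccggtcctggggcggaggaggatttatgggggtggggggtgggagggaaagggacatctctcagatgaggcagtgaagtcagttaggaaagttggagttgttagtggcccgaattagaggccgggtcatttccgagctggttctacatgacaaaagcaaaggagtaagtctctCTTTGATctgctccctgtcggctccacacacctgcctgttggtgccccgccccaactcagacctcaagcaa
Wnt11, which also holds the motif, was not separated by genotype, and Dkk1 was below background.

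Some WNT genes lie side by side in the genome, and the files allow those pairs to be compared. The Wnt6 and Wnt10a probes lie 19112 bases apart on chromosome 1 (mm9), and both had lower values in Nedd9-null replicates 2 to 4. The Wnt1 and Wnt10b probes lie 21932 bases apart on chromosome 15. Wnt1, also named after its values were seen, was at -1.73, -1.68, -1.31 and -1.43 in Nedd9-WT and at -1.52, -1.66, -1.59 and -1.45 in Nedd9-null, with no separation, whereas Wnt10b was lower in replicates 2 to 4. The partners of Wnt9a and Wnt9b on chromosome 11, Wnt3a and Wnt3, were below background.

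Other genes of the pathway were taken from 3 further lists. Of 28 measured genes of the beta-catenin branch, none passed the adjusted threshold by limma with all tumours, and 5 had an unadjusted p under 0.05, or 17.9% against 23.9% of all genes; 2 of them were higher (13.1% of all genes) and 3 lower (10.8%). The median difference was -0.17, beside 0.03 over all genes. Axin2, a target gene often used as a measure of beta-catenin signalling, was at -4.67, -2.42, -6.65 and -3.24 in Nedd9-WT and at -2.50, -4.80, -4.17 and -3.80 in Nedd9-null. The genotypes overlapped, and the difference was 0.42 (adjusted p = 0.817). Ctnnb1, which encodes beta-catenin, differed by 0.17, and Lef1 by -0.18. The scaffold Axin1 was lower by value in Nedd9-null replicates 2 to 4, at 0.09 to 0.34 against 0.82 to 1.11 in Nedd9-WT, with replicate 1 at 0.85. Nkd2, an inhibitor of Dishevelled, was at -0.19 to 0.54 in Nedd9-WT and 0.71 to 1.47 in Nedd9-null, a difference of 0.79 (adjusted p = 0.118), or 1.70 as the mean of its probes.

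Of 12 genes of the planar polarity branch, all measured, none passed by limma with all tumours and 5 had an unadjusted p under 0.05, or 41.7% against 23.9% of all genes; 4 of them were higher (13.1% of all genes). The median difference was 0.25. Celsr1, a cadherin of the core polarity complex that is used by ciliated epithelia, was at 0.14, 1.95, -1.62 and 0.87 in Nedd9-WT and at 1.17, 3.99, 4.43 and 4.13 in Nedd9-null, a difference of 3.09 (adjusted p = 0.117). Nedd9-null replicate 1 was inside the Nedd9-WT range and the other 3 above it. Fuz, a polarity effector needed for cilia, was at -1.88 to -0.90 in Nedd9-WT and at -0.76 to 0.24 in Nedd9-null, with a difference of 1.31 (adjusted p = 0.090). Daam2, a formin downstream of Dishevelled, ran the other way, at 2.76 to 4.21 in Nedd9-WT, 3.69 in Nedd9-null replicate 1 and -1.19 to -0.08 in replicates 2 to 4. The ciliated cell markers were highest in Nedd9-null replicates 2 to 4, the tumours set apart by Celsr1 and Daam2. Fuz was instead higher in every Nedd9-null tumour, replicate 1 included. What part the marked cells had in these values was not tested.

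Of 16 genes for WNT secretion and surface control, 15 were measured and Sost was below background. None passed by limma with all tumours, 2 had an unadjusted p under 0.05, both higher, or 13.3% against 23.9% of all genes in either direction and 13.1% higher. The median difference was 0.10. Tpbg, a membrane protein that modifies LRP6, was at -3.97, -5.13, -5.08 and -2.81 in Nedd9-WT and at -3.10, -0.55, -0.55 and -0.47 in Nedd9-null. Only replicates 2 to 4 were above the Nedd9-WT range, with a difference of 3.08 (SE 0.75, adjusted p = 0.092; 3.72 and 0.0048 without replicate 1). Wls, the carrier that every lipid-modified WNT needs for secretion, was at 2.07 to 2.50 in Nedd9-WT and at 1.87 to 2.07 in Nedd9-null, a difference of -0.35 (adjusted p = 0.23). Without Nedd9-null replicate 1, the adjusted threshold was passed by 3 genes of this list, 5 of the beta-catenin list and 6 of the polarity list, against 18.7% of all genes.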

How the data were processed

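Total RNA of 8 ovarian tumours, 1 per mouse, was labelled with Cy3 and hybridised to Agilent mouse arrays. Scanner files were made with Agilent Feature Extraction 9.5.3, per the submitters' processing notes. The deposited intensity had its background subtracted and a spatial trend removed, per the file headers, with no normalization between arrays. The authors' deposited value table holds log2 values that are not the log2 processed signal (r = 0.978 or higher with it); its background step is not given in the sources used here, and it served as an alternative. Each array had 44397 spots, 1377 of them controls, and 73.0% to 84.6% of probes were well above background; the number of arrays limits the precision.

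Control spots and outlier spots (194 to 292 per array) were left out and saturated spots (15 to 42) kept. Log2 was taken for each spot, the spots of a probe were averaged and the 75th percentile of each array subtracted. A probe was kept where 3 or more of the 4 arrays of either genotype exceeded background (31784 of 39429), and the probe with the highest mean stood for a gene. Names were updated through a RefSeq table of GRCm38.p6 (26055 probes by accession, 3195 by symbol, 930 by synonym, 9249 kept as in the files); no WNT probe changed name. Probe coordinates are mm9, per the file headers, and the genotype comes from the sample titles.

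Nedd9-null was set against Nedd9-WT by limma 3.58.1 under R 4.3.3, using lmFit and then eBayes, 2-sided, over all 25536 genes. P-values were adjusted by the Benjamini-Hochberg method, and 0.05 was the threshold; the fit was tested on simulated data. Nedd9 was also tested by exact permutation with SciPy 1.17.1. No 2 arrays were alike enough to be one library (highest r = 0.984). Values by tumour were planned for WNT genes with an unadjusted p under 0.05 or with genotypes that do not overlap. The 2 of each role with the highest mean signal were added (a selection, not a comparison of levels). Of each pathway list, up to 4 genes with the smallest p were to be named. No values are given above for Kremen2, Rnf43, Apc2, Tnks2 and Prickle2, which met this rule. Of each cell type marker list, up to 2 such genes were to be named, and values are given for Ovgp1 alone. Outside this rule, values were also given for Wnt1, Wnt10b, Wnt11, Fzd9, Sfrp1, Amhr2, Foxl2, Axin2, Ctnnb1 and Lef1. The WNT genes and lists were chosen with earlier results of these data known. Alternatives were the median as scale, quantile normalization, normexp (offset 50), the value table, the filter, the mean of probes, array weights, the replicate number as a block, and leaving out each tumour.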

Additional observations from a re-analysis of the deposited data

Results flagged for a closer look

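In 4 of the 54 groups of 4 tumours examined for the named WNT genes and Nedd9, one tumour lay farther from the rest than Dixon's 95% limit for the gap over the range allows. Chance alone flags about 1 in 20 such groups. All 4 were Nedd9-null replicate 1. In Wnt2b it was the lowest of its genotype, at -6.82, with the others between -3.72 and -3.38. In Wnt5a it was the highest, at 3.02, with the others between -1.63 and -0.92. In Sfrp2 it was the lowest, at -2.79, with the others between 3.26 and 3.37. In Sfrp4 it was the highest, at -0.65, with the others between -3.13 and -3.06. The values come from the same array, and marker levels for that tumour (granulosa -0.16, ciliated -0.88) lay nearer to Nedd9-WT than to the other Nedd9-null tumours; their part in these values was not tested.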

How the results depend on the processing

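No WNT gene passed the adjusted threshold with all 8 tumours, except that array weights gave 17; 15 passed without Nedd9-null replicate 1, and the range when one tumour was left out was 0 to 15. The unadjusted count was 15 to 21. Over all genes, 17 passed in the report's setting, 4 with the median as scale, 4 with quantile normalization, 7 with the filter on all 8 arrays and 5984 with array weights. Leaving out one tumour gave 0 to 4771, the latter without Nedd9-null replicate 1, and 42 without Nedd9-WT replicate 1. WNT genes whose genotypes did not overlap numbered 8 to 20 with one tumour left out, 13 without Nedd9-WT replicate 1, 11 without Nedd9-WT replicate 3 and 20 without Nedd9-null replicate 1. The pathway lists gave 18 genes with array weights and 0 to 14 with one tumour left out, 14 without Nedd9-null replicate 1. The cause of these changes was not tested.

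Same-numbered tumours did not deviate together (r = -0.23 to -0.04). With 4 tumours per genotype this cannot show whether the numbers pair mice, and the labels do not say what a number shares. With the replicate block no gene passed, 16 WNT genes had an unadjusted p under 0.05, and Nedd9 kept its difference of -4.51 with an adjusted p of 0.217. Nedd9 ranged from -4.92 to -4.25 with one tumour left out. Fzd1 changed sign with the median as scale (-0.0083), with array weights (-0.0925) and with one tumour left out (-0.33 to 0.72). Ryk did so with quantile normalization (0.0320), the value table (0.0103) and one tumour left out (-0.0715 to 0.0848). The median as scale moved the median of all genes from 0.03 to -0.16. With it, the difference was 0.37 for Wnt5b, 0.24 for Rspo1 and -0.48 for Lrp6. Low signal limits Wnt2b, Wnt7a, Wnt10a, Rspo3, Fzd10 and Dkk2, whose differences shrank by over 1.5 times with normexp. Other dim genes shrank as well. Across other processing of all 8 tumours, Fzd9 went from -2.25 to as little as -1.34 and Wnt8b from 0.99 to 0.35.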
